A study of Homo sapiens with 10 samples.

Results

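The high mobility group (HMG) chromatin proteins were described across irradiated and control samples of a renal tubular cell line. The members were 9 genes, HMGB1, HMGB2, HMGB3, HMGA1, HMGA2, HMGN1, HMGN2, HMGN3 and HMGN5, taken by symbol from a count table of 61587 gene rows. All 9 were found in the table and all 9 passed the filter of at least 200 counts over the 10 samples, which left 19006 genes for testing. The cells were RPTEC/TERT1, a human proximal tubule epithelial line immortalised with telomerase, in which the study induced senescence by irradiation. The irradiated group held 5 samples exposed to 10 Gy of gamma rays from a caesium source, and the control group held 5 samples that were mock irradiated. Bulk RNA was collected on day 7 in both groups, and all samples came from this single line in the same culture medium. Replicate numbers 1 to 5 paired an irradiated sample with a control sample, although it was not stated that replicates came from independent cultures, so that p-values measure the spread between these samples, which may be technical.

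HMG proteins are abundant non-histone chromatin proteins that fall into 3 subfamilies. HMGB proteins bend DNA with paired HMG boxes, HMGA proteins bind the minor groove of AT-rich DNA with AT hooks, and HMGN proteins bind the nucleosome core and loosen chromatin compaction. HMGB1 also acts as an alarmin when it leaves the cell, HMGA proteins accumulate in the heterochromatin foci of some senescent cells, and loss of nuclear HMGB2 is a known feature of senescence.

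Depth ranged from 78081911 to 131555873 counts in control and from 66269311 to 101594948 counts in irradiated samples. CDKN1A, the p53 target that encodes the cell cycle inhibitor p21, rose from 102 ± 59.3 to 698 ± 69.0 CPM (counts scaled to the TMM-adjusted library size; mean ± SD, n = 5), with no overlap between groups, as a check on the labels. Of 8 proximal tubule markers, 3 defining genes were below the filter, with 17 counts of LRP2, 12 of HNF4A and 86 of SLC34A1 over all samples. CUBN, ANPEP, GGT1, MME and AQP1 passed the filter, as did the renal epithelial gene PAX8. In control samples CUBN averaged 4.37 CPM and AQP1 1.82 CPM. AQP1 was lower after irradiation (log2 fold change -0.61), and the other 4 proximal tubule markers past the filter were not called. SLC12A1, a thick ascending limb transporter, was present at 178 ± 125 CPM in control and 60.9 ± 62.4 CPM in irradiated samples, while UMOD had 0 counts. Summed CPM of 5 fibroblast markers was 15.8 to 23.4 in control and 28.4 to 40.0 in irradiated samples. Most of it was COL1A1 (15.2 to 23.2 and 26.8 to 39.1 CPM). COL1A1 and DCN were higher, while COL1A2 had 23 counts and PDGFRB had 49 over all samples. Summed CPM of 3 endothelial markers was 1.28 to 2.40 and 4.15 to 6.07. CDH5 and PECAM1 were higher, and VWF was not called (0.411 and 0.397 CPM on average). Summed CPM of 4 leukocyte markers was 0.470 to 0.648 and 0.784 to 1.20. CD14 (398 counts over all samples) was higher, and PTPRC was not called. Over all 10 samples, LUM had 2 counts and CD3E had 3.

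The sequences on which members of the family differed are shown first. HMGA2 mRNA is a classical target of let-7 microRNAs, which pair with its 3′ untranslated region through their seed (bases 2 to 8). The 9 mature let-7 and miR-98 sequences in RefSeq (GRCh38.p14) share the seed GAGGUAG, shown here in capitals for let-7a.
hsa-let-7a-5p: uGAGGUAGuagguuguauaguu
hsa-miR-98-5p: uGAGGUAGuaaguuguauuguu
The 3′ untranslated regions of the canonical transcripts (GENCODE 44, GRCh38) were searched on the sense strand for the complement of this seed, CTACCTC. HMGA2 held 4 matches, HMGA1 held 1, and the other 7 members held 0. Among 19571 such regions, 9.75% held at least 1 match and 0.0613% held at least 4. The matches are printed with their flanks because they set HMGA1 and HMGA2 apart from the other members in sequence, with the match in capitals, all on the plus strand at chr12:65963313-65963319, chr12:65964548-65964554, chr12:65964960-65964966, chr12:65965813-65965819 and chr6:34245844-34245850 in the order given.
HMGA2 match 1: cgccaacgttcgatttCTACCTCa
HMGA2 match 2: tccccactactcaataCTACCTCt
HMGA2 match 3: attgacttgcaaagacCTACCTCc
HMGA2 match 4: caatcaaaacacactaCTACCTCt
HMGA1 match 1: ttcctctgttcacaaaCTACCTCt
Mature let-7 was not measured in these poly-A libraries, and a match of 7 letters is a description of the sequence and not of regulation.

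The 250 bases before annotated starts were available for 7 of the 9 members, with 11 starts between them, from RefSeq (GRCh38.p14). HMGB2 and HMGA2 had no entry. They were searched on both strands for the CCAAT box (CCAAT), for the cell cycle homology region (TTTGAA) and for 4 forms of the E2F core, with TTCCCGC as the first, TTGGCGC as the second, TTCGCGC as the third and TTGCCGC as the last, which are elements known from promoters of cell cycle genes. A CCAAT box lay in 7 of the 11 windows, before at least 1 start of HMGB1, HMGB3, HMGA1, HMGN1, HMGN2 and HMGN3 and not before that of HMGN5, against 32% of all 35116 promoters in the same table. TTTGAA lay in 2 of the 11 windows, 1 each of HMGB1 and HMGB3, against 13.3% of all promoters, and no E2F core lay before any of the 11 starts, against 10.9%. Promoters of members that moved in opposite directions are printed below, with CCAAT boxes and TTTGAA in capitals in either orientation, for HMGN2 at chr1:26472190-26472439 on the plus strand, the second of 3 HMGB1 starts at chr13:30465937-30466186 on the minus strand, the first of 2 HMGB3 starts at chrX:150983085-150983334 on the plus strand and the first of 2 HMGA1 starts at chr6:34236623-34236872 on the plus strand.
HMGN2 promoter: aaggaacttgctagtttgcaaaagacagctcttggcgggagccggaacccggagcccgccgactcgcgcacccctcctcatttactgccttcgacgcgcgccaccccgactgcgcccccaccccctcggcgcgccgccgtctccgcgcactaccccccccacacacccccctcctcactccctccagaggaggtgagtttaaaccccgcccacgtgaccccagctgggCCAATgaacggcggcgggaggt
HMGB1 promoter: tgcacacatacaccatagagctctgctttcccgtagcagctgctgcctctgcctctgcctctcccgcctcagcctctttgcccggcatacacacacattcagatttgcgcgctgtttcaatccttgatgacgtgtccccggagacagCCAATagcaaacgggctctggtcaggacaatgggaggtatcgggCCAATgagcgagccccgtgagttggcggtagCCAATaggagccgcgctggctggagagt
HMGB3 promoter: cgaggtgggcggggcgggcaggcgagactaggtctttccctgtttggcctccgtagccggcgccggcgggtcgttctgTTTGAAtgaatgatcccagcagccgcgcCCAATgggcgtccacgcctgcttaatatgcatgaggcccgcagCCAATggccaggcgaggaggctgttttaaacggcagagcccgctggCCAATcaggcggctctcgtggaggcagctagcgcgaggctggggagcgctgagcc
HMGA1 promoter: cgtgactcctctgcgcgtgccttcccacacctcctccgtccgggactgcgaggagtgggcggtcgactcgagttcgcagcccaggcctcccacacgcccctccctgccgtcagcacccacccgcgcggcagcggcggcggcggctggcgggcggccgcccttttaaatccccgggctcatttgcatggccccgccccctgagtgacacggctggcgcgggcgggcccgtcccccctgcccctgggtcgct
HMGN2 and HMGB1, which were lower after irradiation, and HMGB3, which was higher, all carried a CCAAT box in the windows shown, while the first HMGA1 window carried none.

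Irradiation moved the HMG genes in both directions. Of the 9 members, 3 were called higher (HMGA1, HMGA2 and HMGB3) and 4 were called lower (HMGB1, HMGB2, HMGN2 and HMGN5) at an adjusted p below 0.05 by edgeR's quasi-likelihood test, whereas HMGN1 and HMGN3 were not called. The background was high: 46.6% of all genes tested were called, 23.9% higher and 22.7% lower, so the number of members called is not in itself a result about the family. Higher genes made up 51.4% of all calls with TMM factors and 38.0% with library size alone. HMGA2 was the only member more than 2-fold higher and HMGB2 the only one more than 2-fold lower, against 5.26% and 4.06% of all genes. For HMGA2 and HMGN2 this depended on the setting. HMGN2 (log2 fold change -0.99) passed 2-fold lower with library size alone (-1.07), for example. HMGA2 fell short of 2-fold with library size alone (0.98) and without replicate 3 (0.85). The groups did not overlap for 3 of 9 members, with HMGB2 and HMGN2 below and HMGA1 above control, where 26.7% of all genes did not overlap (12.0% below and 14.6% above). The median log2 fold change was -0.09 over the members and -0.01 over all genes tested.

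**Figure D1:**
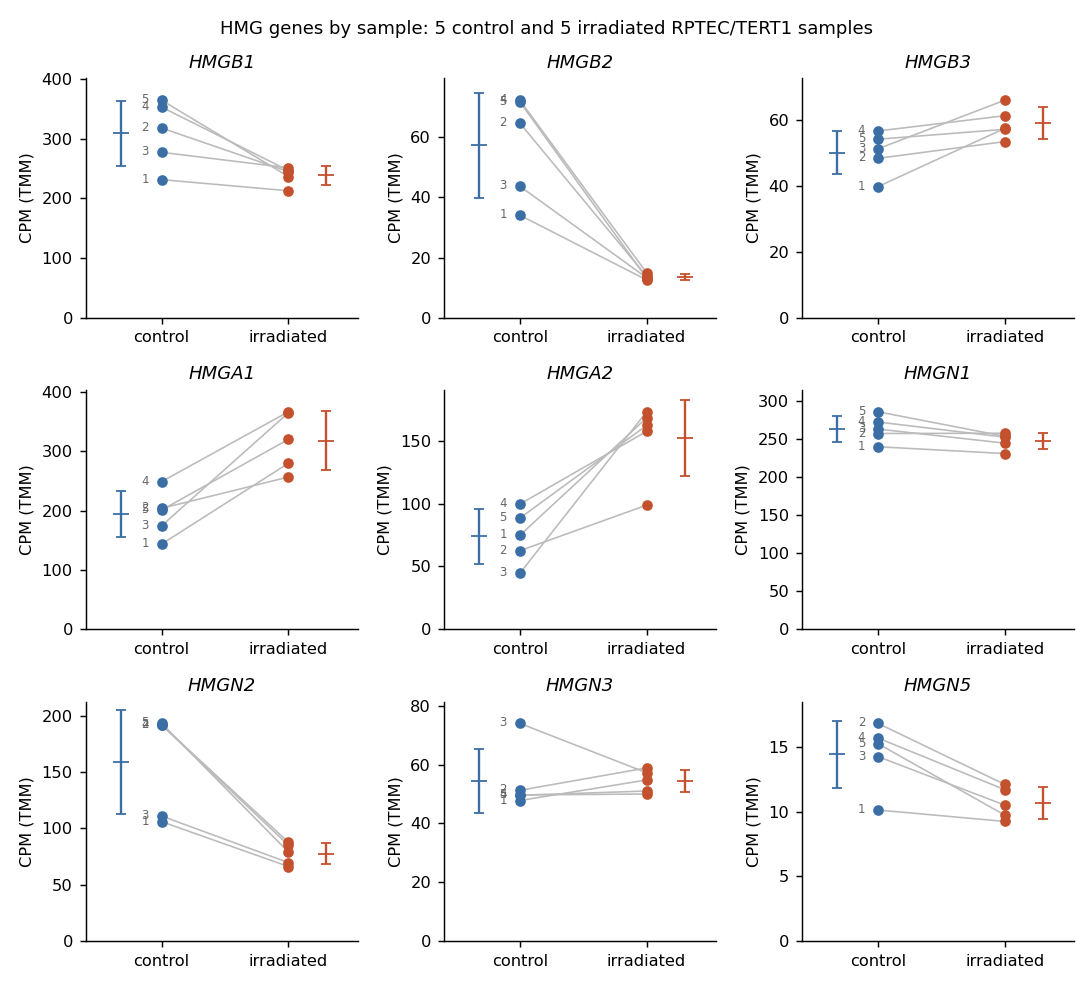
CPM (TMM-normalised, y axis from 0) of each HMG gene in 5 control (blue) and 5 irradiated (orange) samples, with grey lines joining samples of the same replicate number, small numbers naming the control replicate, and bars giving mean ± SD beside each group. HMGB2 falls from 34.1 to 72.3 CPM in control to a narrow band of 12.6 to 15.0 CPM, and HMGA1 lies above every control sample after irradiation.

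Among the HMGB genes, HMGB2 showed the largest change of any member. HMGB2 (ENSG00000164104, chr4:173331376-173334432, minus strand), a DNA-bending protein of proliferating cells, was measured at 34.1, 64.7, 43.7, 72.3 and 71.8 CPM in control replicates 1 to 5. In irradiated replicates 1 to 5 it was measured at 12.6, 13.8, 13.3, 15.0 and 13.2 CPM. Every control sample lay above every irradiated sample, and controls 1 and 3 were the lowest of their group. HMGB2 fell 4.06-fold, with a log2 fold change of -2.02 (SE 0.15, adjusted p = 5.64e-05 by edgeR), and it was lower in 5 of 5 pairs. Within-pair changes ran from -2.44 in pair 5 to -1.44 in pair 1 on the log2 scale. Spread between samples also differed, with a coefficient of variation of 30.4% in control and 6.51% in irradiated samples.

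HMGB1 (ENSG00000189403, chr13:30456704-30617597, minus strand), the ubiquitous member that serves as an alarmin outside the cell, changed less. Control replicates 1 to 5 gave 231, 318, 277, 353 and 364 CPM, and irradiated replicates gave 213, 245, 251, 247 and 237 CPM. The groups overlapped, since control 1 lay among the irradiated samples. HMGB1 was nevertheless lower in 5 of 5 pairs, with a log2 fold change of -0.36 (SE 0.08, adjusted p = 0.00915 by edgeR), or 1.28-fold lower.

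HMGB3 (ENSG00000029993, chrX:150980509-150990771, plus strand), a member best known from embryonic and haematopoietic progenitor cells, went the other way. Control replicates 1 to 5 gave 39.8, 48.3, 51.2, 56.7 and 54.2 CPM, and irradiated replicates gave 57.5, 53.4, 66.0, 61.3 and 57.2 CPM. Irradiated 2 fell below controls 4 and 5, the other 4 irradiated samples lay above every control, and pair 1 showed the widest gap. HMGB3 was higher in 5 of 5 pairs, with a log2 fold change of 0.25 (SE 0.07, adjusted p = 0.0257 by edgeR). The call was lost without replicate 1 (log2 fold change 0.18, adjusted p = 0.0622), with library size alone (0.17, adjusted p = 0.0730) and in the fit without replicate block (0.24, adjusted p = 0.0624).

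Both HMGA genes rose. HMGA1 (ENSG00000137309, chr6:34236873-34246231, plus strand), an architectural factor that organises enhancer complexes, was measured at 144, 204, 175, 249 and 201 CPM in control replicates 1 to 5 and at 280.0, 257, 365, 367 and 320.4 CPM in irradiated replicates. The highest control sample, replicate 4, was just under the lowest irradiated sample, replicate 2. HMGA1 rose 1.64-fold, with a log2 fold change of 0.72 (SE 0.10, adjusted p = 0.00114 by edgeR), and it was higher in 5 of 5 pairs.

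HMGA2 (ENSG00000149948, chr12:65824460-65966291, plus strand), an oncofetal paralogue that is scarce in most adult tissues, was measured at 74.7, 62.5, 44.5, 99.5 and 88.4 CPM in control replicates 1 to 5. Irradiated replicates gave 168, 98.8, 173, 157 and 162 CPM. A single irradiated sample, replicate 2, fell within the control range, just below control 4, and the other 4 irradiated samples lay above every control. HMGA2 rose 2.09-fold, with a log2 fold change of 1.06 (SE 0.18, adjusted p = 0.00241 by edgeR). It was higher in 5 of 5 pairs, with within-pair changes from 0.66 in pair 2 to 1.96 in pair 3 on the log2 scale. HMGA2 carries the 4 let-7 seed matches printed above and HMGA1 carries 1, and whether the changes of these genes differ was not tested.

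RNAs that overlap or neighbour HMGA2 moved in the same direction. HMGA2-AS1, an antisense RNA within the gene, was 3.25 ± 1.34 CPM in control and 5.63 ± 1.81 CPM in irradiated samples (log2 fold change 0.85, adjusted p = 0.0146 by edgeR). RPSAP52, a transcribed pseudogene antisense to the HMGA2 start (chr12:65758020-65826997, minus strand), was 2.61 ± 0.915 and 6.17 ± 1.53 CPM (log2 fold change 1.27, adjusted p = 0.00757 by edgeR). Reads in the shared 2.55% of HMGA2 exon bases could not be attributed to a strand in these counts. With strand ignored, reads of unspliced HMGA2 RNA that fall on exons of these RNAs would be counted to them. Antisense transcription and such reads cannot be told apart here.

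Among the HMGN genes, HMGN2 fell and HMGN1 was nearly level. HMGN2 (ENSG00000198830, chr1:26472440-26476642, plus strand), a nucleosome-binding protein, gave 106, 192, 111, 192 and 193 CPM in control replicates 1 to 5 and 66.1, 87.7, 69.6, 85.1 and 79.0 CPM in irradiated replicates. Controls 1 and 3 stood well below the other controls but above every irradiated sample. HMGN2 fell 1.99-fold, with a log2 fold change of -0.99 (SE 0.10, adjusted p = 0.000229 by edgeR), and it was lower in 5 of 5 pairs.

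HMGN1 (ENSG00000205581, chr21:39342315-39349647, minus strand), another nucleosome-binding member, gave 239.8, 257, 263, 272 and 286 CPM in control and 231, 258, 245, 252 and 254 CPM in irradiated replicates 1 to 5. The ranges overlapped and the test did not pass (log2 fold change -0.09, SE 0.04, adjusted p = 0.134 by edgeR), with 4 of 5 pairs lower. Scaling moved this call: with upper-quartile factors the log2 fold change was -0.12 (adjusted p = 0.0439), and with library size alone it was -0.16 (adjusted p = 0.0127).

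HMGN5 (ENSG00000198157, chrX:81113699-81201913, minus strand), a member with a long acidic tail that counters linker histone binding, was lower after irradiation. Control replicates 1 to 5 gave 10.1, 16.8, 14.3, 15.7 and 15.3 CPM, and irradiated replicates gave 9.24, 12.1, 10.5, 11.7 and 9.74 CPM. Control 1 lay among the irradiated samples, but every pair was lower, with a log2 fold change of -0.43 (SE 0.08, adjusted p = 0.00372 by edgeR). HMGN3 (ENSG00000118418, chr6:79201245-79234689, minus strand) averaged 54.5 ± 11.0 CPM in control and 54.4 ± 3.85 CPM in irradiated samples and was not called (log2 fold change 0.02, SE 0.08, adjusted p = 0.897 by edgeR). Its value in control 3, 74.1 CPM, stood apart from 47.8 to 51.3 CPM in the other controls, and the sign of its change varied with the processing. The antisense HMGN3-AS1, which covers 10.7% of HMGN3 exon bases, was higher (log2 fold change 0.45, adjusted p = 0.00306 by edgeR).

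**Figure D2:**
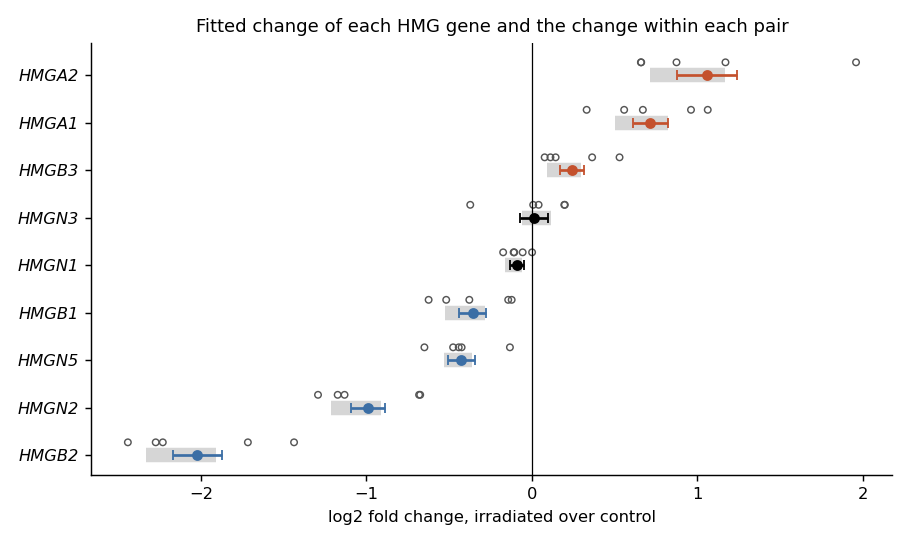
Fitted log2 fold change (irradiated over control) of each HMG gene, with the standard error as a bar, orange for higher, blue for lower and black for not called, open circles for the change within each of the 5 pairs, and a grey band for the range of the fitted value over the 15 alternative settings. HMGB2 and HMGN2 lie left of 0 and HMGA1 and HMGA2 right of 0 in every pair and setting, whereas the band of HMGN3 spans 0.

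Ratios of members within a sample do not depend on how samples were scaled, and they set paralogues against each other. HMGB2 stood at 18.2% of the HMGB1 CPM on average in control and 5.70% in irradiated samples, and the log2 ratio went from -2.47 ± 0.23 to -4.13 ± 0.08 (SD, n = 5) without overlap. HMGB3 over HMGB1 went from -2.62 ± 0.13 to -2.01 ± 0.12, also without overlap and higher in 5 of 5 pairs. HMGN2 over HMGN1 went from -0.78 ± 0.40 to -1.68 ± 0.12, or 59.8% to 31.2%, with every irradiated sample below every control. HMGB2 and HMGN2 already separated the groups when taken alone, whereas HMGB1 and HMGB3 each overlapped. The ratios were chosen with earlier results known, and the share of other gene pairs that separate the groups was not computed. By contrast, HMGA2 over HMGA1 went from -1.43 ± 0.41 to -1.08 ± 0.24 and HMGN5 over HMGN1 from -4.21 ± 0.23 to -4.55 ± 0.13, and both overlapped, although each moved one way in 5 of 5 pairs.

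**Figure D3:**
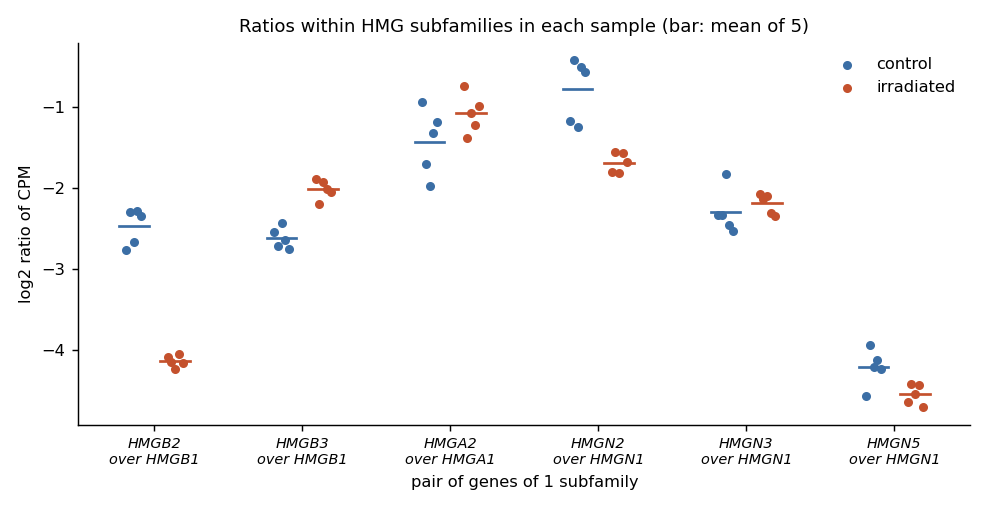
Log2 ratio of the CPM of 2 genes of a subfamily in each control (blue) and irradiated (orange) sample, with a bar at the mean of 5. The ratios of HMGB2 and HMGB3 to HMGB1 and of HMGN2 to HMGN1 separate the groups, while HMGA2 over HMGA1, HMGN3 over HMGN1 and HMGN5 over HMGN1 overlap.

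Levels were compared between genes only per kilobase, using the union of each gene's exons. In control samples HMGA1 was highest at 83.6 ± 16.8 CPM per kb, followed by HMGN1 (52.3), HMGN2 (49.8), HMGN3 (40.5), HMGB1 (40.1), HMGB2 (23.9), HMGB3 (12.8), HMGN5 (6.04) and HMGA2 (4.91). Ranges over samples overlapped between all neighbours in this order except HMGA1 with HMGN1 and HMGB3 with HMGN5. In irradiated samples the order of CPM per kb was HMGA1 (137), HMGN1 (49.1), HMGN3 (40.4), HMGB1 (31.0), HMGN2 (24.3), HMGB3 (15.1), HMGA2 (10.1), HMGB2 (5.65) and HMGN5 (4.46), and ranges of no 2 neighbours overlapped. HMGB2 thus moved down and HMGA2 up in the order. The order depends on the length: per kb of the longest coding transcript, HMGN1 came first in both groups, at 207 and 195 CPM per kb, ahead of HMGA1 at 90.1 and 147.

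As a share of the summed CPM per kb of the 9 genes, the HMGA pair rose from 28.1% ± 1.95 to 46.1% ± 4.03 (SD, n = 5). The HMGB genes went from 24.3% ± 1.60 to 16.4% ± 0.583 and the HMGN genes from 47.6% ± 2.76 to 37.5% ± 3.48. Groups did not overlap for any of the 3 subfamilies with this length. The 3 shares make up the whole in each sample, so a larger HMGA share lowers the others and these are not separate results. With the longest coding transcript the HMGA share was 17.8% in control and 31.5% in irradiated samples, the HMGB share 19.7% and 13.3%, and the HMGN share 62.5% and 55.2%, so the directions were kept while the shares moved, and the groups then overlapped for the HMGN share (58.6% to 65.6% in control and 51.9% to 60.5% in irradiated samples). Most of the HMGA share was HMGA1, which alone made up 26.5% in control and 42.9% in irradiated samples with exon unions.

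**Figure D4:**
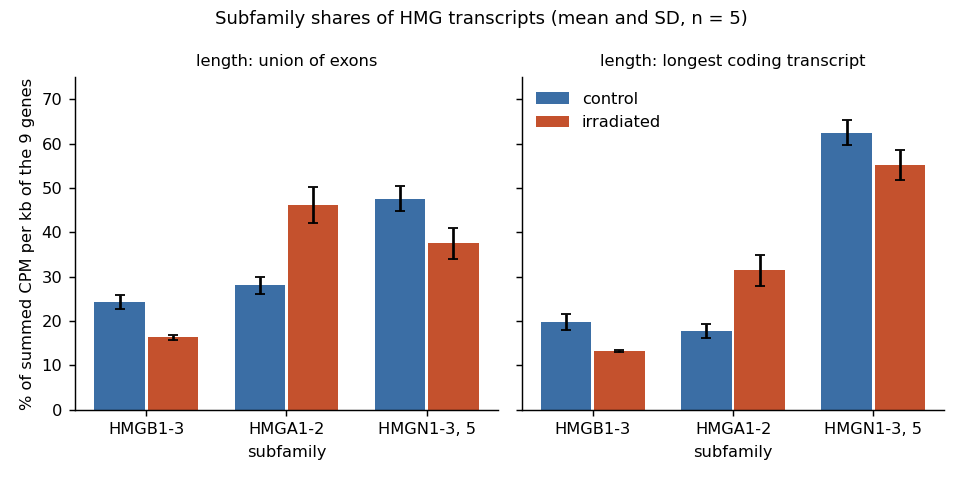
Share (%) of the summed CPM per kb of the 9 genes that fell to each subfamily in control (blue) and irradiated (orange) samples, as mean and SD of 5 samples, with gene length taken as the union of exons (left) or the longest coding transcript (right). The HMGA share is larger and the HMGB and HMGN shares are smaller after irradiation with either length.

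Several members varied among control samples along with cell cycle genes. Of 25 cell cycle genes, 22 were lower and 3 were not called after irradiation by edgeR (23 lower by DESeq2 and 22 by limma-voom). Their median log2 fold change was -1.76, against -0.01 over all genes tested, of which 22.7% were lower by edgeR. The largest falls were in MKI67, KIF20A and CENPA, which mark or drive mitotic proliferation (log2 fold changes -2.57, -2.56 and -2.47). The mean log2 CPM of the list was 4.07, 5.33, 3.99, 5.38 and 5.31 in control replicates 1 to 5 and 3.29, 2.93, 3.45, 3.44 and 3.22 in irradiated replicates. Controls 1 and 3 were the lowest controls for the list and for 5 members, namely HMGB2, HMGN2, HMGB1 and HMGN5, which were lower after irradiation, and HMGA1, which was higher. The part of proliferation in these changes was not tested. In bulk samples, fewer cells in cycle and less RNA per cell cannot be told apart.

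Leaving out replicates 1 and 3, a choice made after the data were seen, gave a log2 fold change of -2.33 for HMGB2, -1.22 for HMGN2, -0.52 for HMGB1, 0.50 for HMGA1 and 0.72 for HMGA2, all still called, while HMGB3 was no longer called (0.10, adjusted p = 0.0883 by edgeR). Without these replicates 2 members were therefore called higher and 4 lower. Irradiated samples spanned a narrower range than controls for both HMGB2 and the cell cycle list. Irradiated 2, lowest of its group for the list, was also lowest for HMGA1, HMGA2 and HMGB3. The same sample was highest of its group for HMGN2 (87.7 CPM), HMGN5 (12.1 CPM), HMGN1 and HMGN3, so these members did not follow the list there.

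**Figure D5:**
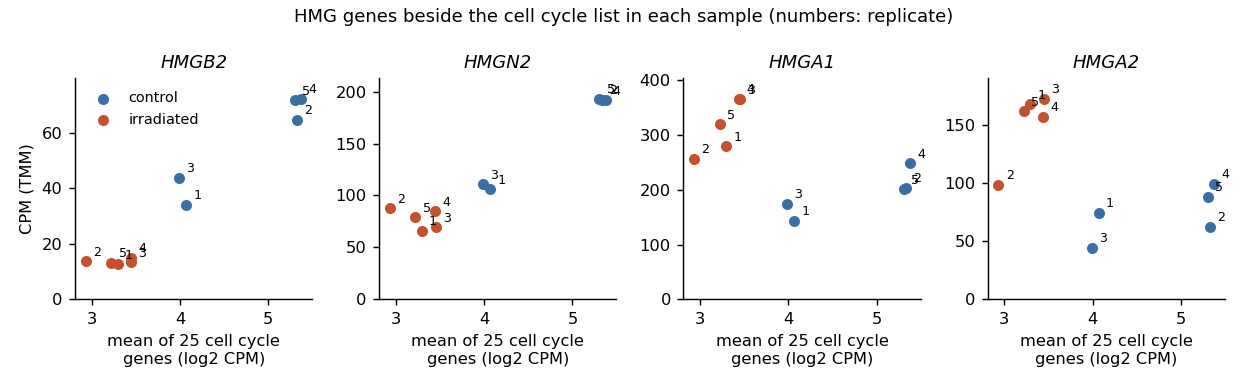
CPM of HMGB2, HMGN2, HMGA1 and HMGA2 (y axis from 0) against the mean log2 CPM of 25 cell cycle genes in each control (blue) and irradiated (orange) sample, numbered by replicate. Controls 1 and 3 lie lowest among controls on the x axis and for HMGB2, HMGN2 and HMGA1, and the irradiated samples lie at 2.93 to 3.45 on the x axis.

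Genes whose log2 CPM most resembled that of each member over the 10 samples are given as a description, since the samples share the 2 treatment groups and separate by them. For HMGB2 they were EMP2, MRPL11 and SNRPA (Pearson r = 0.992, 0.991 and 0.989), for HMGN2 EXOSC9, USP1 and the pseudogene HMGN2P5 (r = 0.996, 0.996 and 0.993), and for HMGB1 its pseudogene HMGB1P5, PTTG1 and NUCKS1 (r = 0.984, 0.974 and 0.972). HMGA2 was nearest to CST6, RPSAP52 and AK4P1 (r = 0.987, 0.986 and 0.983) and HMGA1 to APRT, RAI14 and LRRC59 (r = 0.997, 0.992 and 0.988). HMGB3 was nearest to PRELID3B, RSL1D1 and MT1L, HMGN1 to BRD7, E2F6 and ZNG1B, HMGN3 to CHMP1B, AP3S2 and PLA2G12A, and HMGN5 to NIF3L1, RBSN and MRM3, with r from 0.947 to 0.975 over the same 10 samples.

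HMG genes have many processed pseudogenes, from which reads may be shared or lost. The table held 157 genes named as pseudogenes of the members, of which 98 had counts and 19 passed the filter, and they carried 2.26% of the summed counts of members and pseudogenes. HMGB1 had 48 copies with 5.41% of the sum and HMGN2 had 38 with 3.86%, while HMGA2 and HMGN5 had none. Of the 19, 3 were higher, 4 were lower and 12 were not called, where 23.9% of all genes tested were higher and 22.7% lower. The lower ones had log2 fold changes of -0.47 for HMGB1P5, -0.43 for HMGB1P6, -0.98 for HMGN2P5 and -0.89 for HMGN2P3. HMGB2P1, which lies within STK11 on the same strand, went against its parent, from 0.171 to 0.860 CPM (log2 fold change 2.34), and HMGB1P49 and HMGN2P28 were also higher (1.21 and 0.52). Adding pseudogene counts to each member left every call in place, with HMGB2 at -1.94. The added counts were a small part of each sum, so calls could hardly change, and reads lost between copies are not recovered this way.

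Further genes with HMG boxes or HMGN domains were counted beside all genes tested. Of 26 listed, 24 were tested, with 2 higher, 8 lower and 14 not called, and a median log2 fold change of -0.09. Among all genes tested, 46.6% were called, 23.9% higher and 22.7% lower, so these counts are not in themselves a result about such genes. SSRP1, the HMG-box subunit of the histone chaperone FACT, fell from 137 ± 16.5 to 94.8 ± 5.29 CPM (log2 fold change -0.52, adjusted p = 0.000218 by edgeR). The Wnt effectors LEF1 and TCF7L1 both had log2 fold changes of -0.70, and the other 5 that were lower were HMG20B, SMARCE1, HMGXB4, NSD2 and KMT2C (-0.32 to -0.13). TOX and HMGXB3 were higher (log2 fold changes 1.19 and 0.27). HMGN4, a near copy of HMGN2, was 34.2 ± 4.33 CPM in control and 35.3 ± 1.25 CPM in irradiated samples and was not called (adjusted p = 0.468 by edgeR). Among the genes not called were UBTF, TFAM, PBRM1, TOX3, TOX4, BBX, WDHD1, CIC, HBP1, KMT2D, TCF7 and TCF7L2, and HMGB4 (2 counts) and TOX2 (40 counts) were not tested.

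Linker histones, which compete with HMG proteins for chromatin, were split. H1-10 and H1-4 were lower (log2 fold changes -0.89 and -0.68) and H1-2 was higher (0.62), while H1-1, H1-3 and H1-5 stayed under the filter. Most clustered histone mRNAs lack a poly-A tail, so these poly-A libraries capture them poorly. Of 10 heterochromatin factors of senescence, 5 were lower, 1 was higher and 4 were not called, with a median log2 fold change of -0.18. Over all genes tested the shares were 22.7% lower and 23.9% higher. CABIN1, part of the HIRA histone chaperone complex, and CBX5, which encodes HP1 alpha, were lower (log2 fold changes -0.44 and -0.40), as were CBX1, HIRA and UBN1, and the histone chaperone ASF1A was higher (0.30).

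The LIN28 and let-7 axis was examined for the let-7 matches in HMGA2. Of 12 genes, 9 were tested, with 2 higher, 4 lower and 3 not called, and a median log2 fold change of -0.06. The background shares were 23.9% higher and 22.7% lower. MIRLET7BHG, a host transcript of let-7 precursors, was lower in 5 of 5 pairs, from 23.0 ± 4.13 to 17.1 ± 2.46 CPM (log2 fold change -0.43, adjusted p = 0.00405 by edgeR). IGF2BP2, an RNA-binding protein gene regulated by HMGA2, was lower (log2 fold change -0.37), as were DICER1 and TUT4, while the let-7 target ARID3B and IGF2BP3 were higher (0.32 and 0.25). MIR100HG, a host transcript of another let-7 precursor, was 1.41 ± 0.415 CPM in control and 1.63 ± 0.213 CPM in irradiated samples and was not called (log2 fold change 0.24, adjusted p = 0.163 by edgeR). The let-7 inhibitors LIN28A and LIN28B had 30 counts and 1 count over all samples and were not tested.

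Receptors and partners through which extracellular HMGB1 acts moved in both directions. Of 11 genes, 8 were tested, with 5 higher, 3 lower and a median log2 fold change of 1.34. Among all genes tested, 23.9% were higher and 22.7% lower. CXCL12, a chemokine that forms a complex with HMGB1, fell from 1.24 ± 0.804 to 0.101 ± 0.0536 CPM (log2 fold change -3.56), whereas its receptor CXCR4 rose from 1.22 ± 0.931 to 7.26 ± 5.58 CPM (2.52) and THBD, which binds HMGB1, rose from 0.675 ± 0.318 to 3.54 ± 1.12 CPM (2.44). The others, named after their values were seen, were TLR4, HAVCR2 and TLR2, which were higher (log2 fold changes 1.59, 1.44 and 1.24), and CD24 and AGER, which were lower (-0.86 and -0.30). Apart from CD24, all were at low CPM in this line. The summed fibroblast, endothelial and leukocyte markers given above moved in the same direction as CXCR4 and the Toll-like receptors. Those sums rest on few genes, and a link was not tested.

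Of 8 genes that modify or export HMGB1, 5 were lower and 3 were not called (PARP1, XPO1 and SIRT1), where 22.7% of all genes tested were lower, and the median log2 fold change was -0.20. The acetyltransferase KAT2B had the largest change (log2 fold change -0.57), followed by the deacetylase HDAC4 and the acetyltransferase CREBBP (-0.35 and -0.30), and HDAC1 and EP300 were also lower. Of 5 partners of HMGB2 in the SET complex, 4 were tested (SET, ANP32A, APEX1 and NME1), with log2 fold changes from -0.06 to 0.18. Of these 4, 0 were called by edgeR, DESeq2 or limma-voom, where edgeR called 46.6% of all genes tested. An unadjusted p below 0.05 in edgeR was seen for 0 of them. TREX1 had 0 counts, its exons lying wholly under another gene.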

How the data were processed

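RPTEC/TERT1 samples (5 irradiated, 5 control) were grouped and numbered by their GEO titles. Per the study's methods the authors trimmed adapters, aligned reads to GRCh38 with STAR and tabulated reads per gene during alignment, and the submitters' processing notes also name DESeq2 and hg38. The deposited values are raw counts per gene, not normalised. The labels name a TruSeq RNA kit and the methods a NEBNext kit, and the strand setting is not given in the sources used here. As a test of strand use, 17 of 17 protein-coding genes fully covered by opposite-strand exons held 0 counts, where 9.29% of 10506 genes free of overlap did. Strand was therefore taken as ignored, and a read falling on 2 genes as discarded.

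Counts were tested in R 4.3.3 with edgeR 4.0.16 (TMM, glmQLFit and glmQLFTest with replicate number as a block) on genes whose counts summed to at least 200, with Benjamini-Hochberg adjustment over all 19006 genes and a threshold of 0.05. This scheme was tested on simulated data. DESeq2 1.42.0 and limma 3.58.1 (voom) served as alternatives, as did other scaling, filters, the fit without the block, samples left out and pseudogene counts added. The methods state the same filter and a replicate term. Deviations from the group means correlated at 0.22 to 0.51 between same-numbered samples, against -0.35 to 0.32 for other pairs. Replicate 2, at 0.22, lay within the range of other pairs. The numbers were taken as pairs from these values and the replicate term of the methods. No library appeared to have been deposited more than once, since chi-square per gene between replicates was 8.50 to 213. Replicates 4 and 5 were much closer to each other than any others were, at 15.1 in control and 8.50 in irradiated samples. Other combinations gave 57.1 to 213 in control and 40.4 to 88.5 in irradiated samples. Whether replicates 4 and 5 were less independent than the rest was not tested.

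CPM used TMM-scaled library sizes (factors 0.915 to 1.06), and log2 CPM a prior count of 2. Lengths, coordinates and 3′ untranslated regions came from GENCODE 44, and microRNA and promoter sequences from RefSeq tables. At these depths the spread between replicates, and not counting error, sets the precision of each member. Members, gene lists, sequence searches and tests were chosen with earlier results of these data known. Besides the members and CDKN1A, genes were named as up to 3 of each related list with the largest change past the threshold, further HMG-box genes and linker histones (some are not reported here), and the 3 genes most correlated with each member. Protein features of the members were not analysed here.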

Additional observations from a re-analysis of the deposited data

Results flagged for a closer look

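Among 30 groups of 5 values examined (the CPM of 9 members and 6 ratios in each treatment group), 3 held a sample whose gap to its nearest neighbour, relative to the range of the group, exceeded Dixon's critical value of 0.71. Chance flags about 1 in 20 such groups, or 1.5 of 30. HMGA2 in irradiated replicate 2 was 98.8 CPM, where the other irradiated samples gave 157 to 173 CPM, and this is the sample that overlaps the control range. HMGN3 in control replicate 3 was 74.1 CPM, where the other controls gave 47.8 to 51.3 CPM. The log2 ratio of HMGN3 over HMGN1 in the same control was -1.83, where the others gave -2.52 to -2.33, so that 2 of the 3 values come from a single gene in a single sample. HMGN3 was not called with or without replicate 3 (adjusted p = 0.0724 without it).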

How the results depend on the processing

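HMGB1, HMGB2, HMGA1, HMGA2, HMGN2 and HMGN5 kept their direction and call under all 15 alternatives (log2 fold changes -0.52 to -0.28, -2.33 to -1.91, 0.50 to 0.82, 0.72 to 1.17, -1.22 to -0.91 and -0.53 to -0.36). HMGB3 kept its direction but was called under 11 of 15. Its call was lost with library size alone (0.17, adjusted p = 0.0730), without replicate block (0.24, adjusted p = 0.0624), without replicate 1 (0.18, adjusted p = 0.0622, where leaving out 1 replicate gave 0.18 to 0.29) and without replicates 1 and 3 (0.10, adjusted p = 0.0883). HMGN1 became called as lower with upper-quartile factors (-0.12, adjusted p = 0.0439) and library size alone (-0.16, adjusted p = 0.0127). HMGN3 was called under none of the 15 and its sign turned with upper-quartile factors (-0.0178), library size alone (-0.0610), a minimum of 1 count (-0.0201), no replicate block (-0.00242) and replicate 1 or 2 left out (-0.0289 to 0.12 over the 5 replicates). The share of called genes that were higher was 51.4%, and 44.9% and 38.0% with upper-quartile factors and library size alone, where the median log2 fold change of all genes was -0.04 and -0.09. Without the block, 3640 genes were called higher and 3366 lower, against 4550 and 4307 with it, and no other member's call changed. With the other gene length, 14 of 18 CPM per kb values moved by more than 1 SD, because the same CPM was divided by another length. The cause of the other shifts was not tested. Depth does not limit the members, each with at least 811 counts in every sample, and the spread between 5 samples a group does.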
